A study of Mus musculus with 4 samples.

Results

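The enzymes of fatty acid oxidation and fatty acid synthesis described here are 10 genes chosen by symbol from the 35798 named genes of the count table: Cpt1a and Cpt2 of the carnitine shuttle, Acadm, Acadl, Acadvl, Hadha and Hadhb of mitochondrial beta-oxidation, and Fasn, Acaca and Scd2 of synthesis. All 10 were found in the table and passed the filter on low counts. The libraries came from Ly49H+ NK cells sorted on D3.5 after infection with murine cytomegalovirus (MCMV), which carries a glycoprotein that the activating receptor Ly49H recognizes. There were 2 libraries of wild-type (WT) cells carrying the CD45.1 allele and 2 of TNFR2 knockout (KO) cells carrying CD45.2, from donors deficient in Tnfrsf1b. Cells of both genotypes had been transferred together into the same NSG mice, which lack T, B and NK cells of their own but keep macrophages, granulocytes and red cells. All cells thus shared the transfer, the infection and the host, and every library came from the pooled spleens of 3 NSG mice, with WT and KO libraries of 1 number taken from 1 pool per the labels. Per the study's methods, the mice were young adults. Genotype, CD45 allele, donor line and sort gate changed together and cannot be told apart, and the sources do not make clear whether both libraries of a genotype came from different mice, so p-values measure only the spread between these samples, which may be technical.

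Long-chain fatty acids enter mitochondria as carnitine esters. The transferase encoded by Cpt1a on the outer membrane makes the ester, and the one encoded by Cpt2 on the inner membrane turns it back into acyl-CoA. Acyl-CoA dehydrogenases for very long (Acadvl), long (Acadl) and medium (Acadm) chains then start each round of beta-oxidation, and the trifunctional protein, built from the products of Hadha and Hadhb, completes it for long chains. In the opposite direction, acetyl-CoA carboxylase 1 (Acaca) makes malonyl-CoA, fatty acid synthase (Fasn) builds palmitate from it, and stearoyl-CoA desaturase 2 (Scd2) puts the first double bond into saturated chains. Activated lymphocytes are known to build membrane lipids while they divide, and malonyl-CoA is known to inhibit the carnitine shuttle.

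The libraries held 32713256 to 39543650 estimated counts on named genes. Levels are given as CPM, the share of a library's counts on the usual per-million scale, after scaling by edgeR's TMM factors, and a log2-fold change is KO over WT from edgeR's quasi-likelihood test, with p-values adjusted over the 13822 genes tested. Tnfrsf1b measured 264.7 and 268.6 CPM in WT and 55.1 and 58.6 CPM in KO libraries. Of the KO libraries, NK cell genes made up a larger share and genes of other blood cells a smaller one. All 14 NK cell markers were higher in KO (summed level 16423 to 16516 CPM in WT, 29839 to 30077 CPM in KO), among them Ncr1 with a log2-fold change of 0.99 and Klra8, which encodes Ly49H, with 1.24. Of 23 macrophage or monocyte markers 22 were lower (2994 to 3003 CPM against 1027 to 1051 CPM), with Adgre1 at -3.36 and Csf1r at -3.24, while Ccr2, named after its values were seen, was higher and gave 670 to 687 CPM of the KO sum. All 14 neutrophil or granulocyte precursor markers were lower (1011 to 1027 CPM against 94.7 to 98.6 CPM; Mpo -6.50), as were all 9 of basophils or mast cells (1253 to 1258 CPM against 29.5 to 30.2 CPM; Mcpt8 -5.57). Of the dendritic cell or class II genes 6 of 10 were lower (1762 to 1799 CPM against 153.9 to 155.0 CPM), and all 10 erythroid genes were (291 to 296 CPM against 66.6 to 71.1 CPM). Of the T or B cell genes 5 of the 7 tested were lower and 1 was higher (814 to 826 CPM against 691 to 692 CPM). No marker had 0 counts in every library. In bulk RNA, fewer cells of a type and less RNA per cell cannot be told apart.

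**Figure D1:**
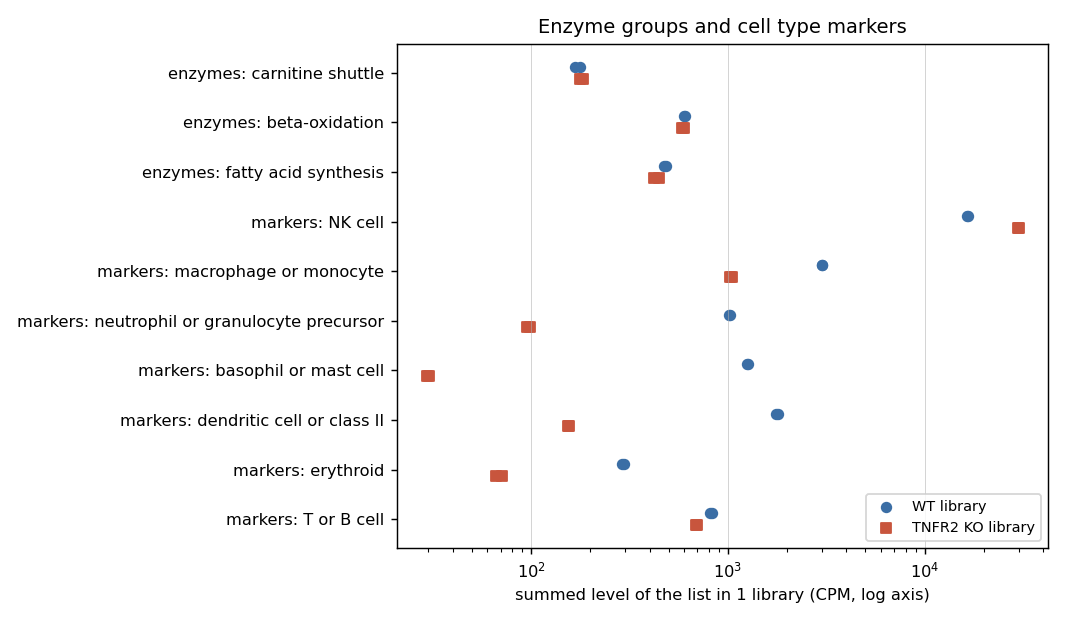
Summed level of each enzyme group and cell type marker list in each library (CPM, log axis), with circles for the 2 WT and squares for the 2 TNFR2 KO libraries. The enzyme groups differ little between genotypes, from 476 to 487 CPM in WT and 423 to 447 CPM in KO for synthesis, whereas the basophil or mast cell markers lie at 1253 to 1258 CPM in WT and 29.5 to 30.2 CPM in KO.

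The 10 enzymes were expressed at similar levels in both genotypes, with small shifts in some of them. Acadl, Acaca and Scd2 fell, by 12.3%, 14.2% and 18.4% of their mean CPM, and Hadhb rose by 13.3%, although it turned lower when libraries were scaled on NK lineage genes. The other 6 did not pass an adjusted p of 0.05. Thus 4 of 10 enzymes passed, 3 lower and 1 higher, where 50.4% of all genes tested passed, 26.2% lower and 24.2% higher. With edgeR and with DESeq2, no enzyme passed the study's further limit of an absolute log2-fold change over 1, which 13.3% of all genes passed together with the adjusted p. The median of the absolute log2-fold change was 0.11 over the 10 enzymes and 0.22 over all genes, and the median of the signed change was -0.01 and -0.003. In 5 of the 10, the libraries of both genotypes did not overlap, as in 74.0% of all genes. Summed over the 10 enzymes, the level was 1265 and 1249 CPM in WT and 1187 and 1226 CPM in KO.

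**Figure D2:**
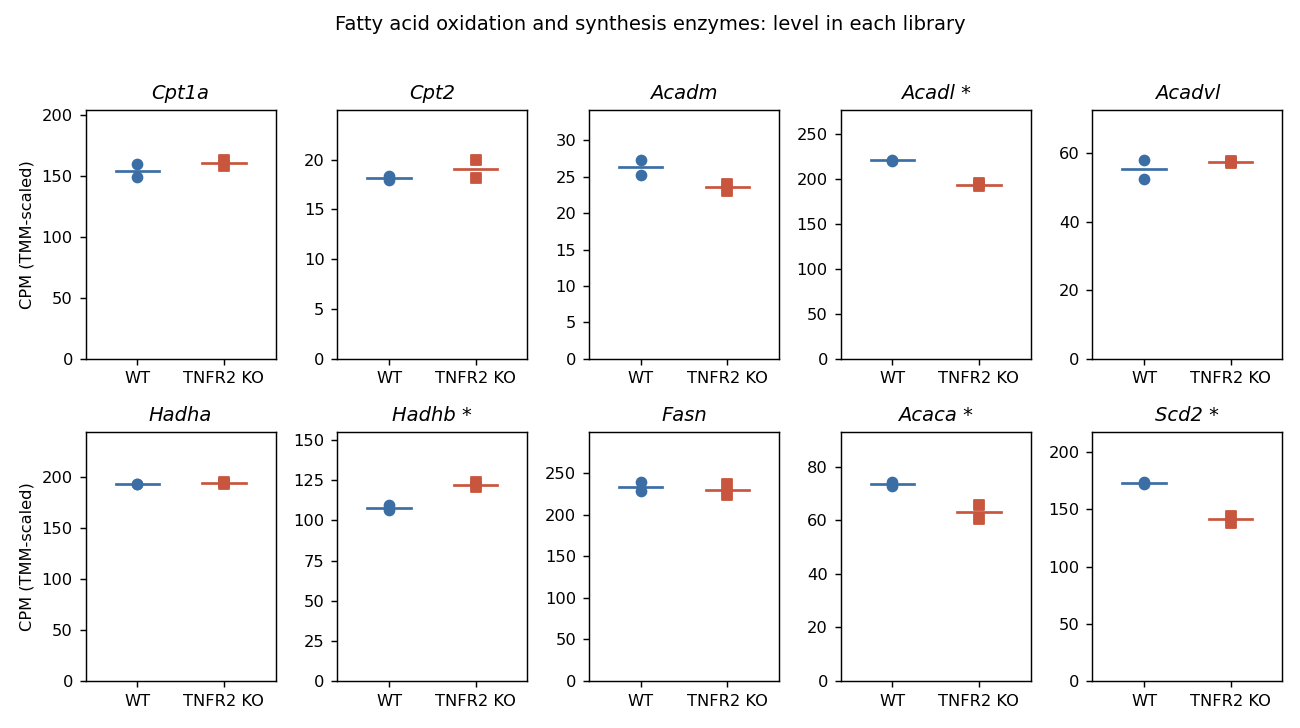
Level of each of the 10 enzymes (CPM, TMM-scaled, axes from 0), with circles for WT and squares for TNFR2 KO libraries, a bar at each mean, and an asterisk where the adjusted p was under 0.05. The 4 marked genes are Acadl, Acaca and Scd2, lower in KO, and Hadhb, higher in KO with this scaling and lower when scaled on NK lineage genes.

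Both transferases of the carnitine shuttle measured about the same in WT and KO libraries. Cpt1a, on the plus strand of chromosome 19 (3322334 to 3385733; GRCm38, the mm10 build, as are all positions here), measured 159.7 and 148.9 CPM in WT and 158.6 and 163.4 CPM in KO. The KO values lay inside and just above the range of the WT libraries. Its log2-fold change was 0.06 with an unadjusted 95% interval from -0.02 to 0.14 (adjusted p = 0.197, edgeR). It passed without WT replicate 1 (0.12, adjusted p = 0.0256) and without KO replicate 1 (0.09, 0.0449), whereas without WT replicate 2 it was 0.02 (0.737) and without KO replicate 2 it was 0.04 (0.389). Cpt2, on the minus strand of chromosome 4 (107903981 to 107923610), was less abundant, at 18.4 and 18.0 CPM in WT and 18.2 and 20.0 CPM in KO. The groups overlapped, and the interval of its log2-fold change ran from -0.10 to 0.23.

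The 3 acyl-CoA dehydrogenases differed in their behavior. Acadl, for long chains, lies on the minus strand of chromosome 1 (66830839 to 66863277) and measured 220.0 and 221.2 CPM in WT against 191.6 and 195.4 CPM in KO. Both KO libraries were below both WT libraries, with a log2-fold change of -0.19 (SE 0.0275, adjusted p = 0.000103, edgeR). Acadm, for medium chains, on the minus strand of chromosome 3 (153922357 to 153944632), measured 25.3 and 27.3 CPM in WT and 24.1 and 23.1 CPM in KO. Its groups did not overlap either, but with a log2-fold change of -0.16 and an adjusted p of 0.0574 it missed the threshold. It passed with scaling by library size alone (-0.22, adjusted p = 0.013, edgeR). It also passed with only genes of a mean of at least 10 CPM tested (-0.19, adjusted p = 0.017, edgeR). Without WT replicate 1 its log2-fold change was -0.20, whereas without WT replicate 2 it stood at -0.09. Acadvl, for very long chains, on the minus strand of chromosome 11 (70010183 to 70015411), measured 52.5 and 58.0 CPM in WT and 57.1 and 57.7 CPM in KO. Here both KO values fell between the WT ones, and the interval of the log2-fold change was -0.06 to 0.17. The promoter window of Acadl, 250 bases before to 50 after its RefSeq start (chr1:66863260-66863559, minus strand, RefSeq on GRCm38.p6), is shown as that of the dehydrogenase that fell, with the GC box GGGCGG, the core bound by Sp1, in capitals on either strand.
Acadl: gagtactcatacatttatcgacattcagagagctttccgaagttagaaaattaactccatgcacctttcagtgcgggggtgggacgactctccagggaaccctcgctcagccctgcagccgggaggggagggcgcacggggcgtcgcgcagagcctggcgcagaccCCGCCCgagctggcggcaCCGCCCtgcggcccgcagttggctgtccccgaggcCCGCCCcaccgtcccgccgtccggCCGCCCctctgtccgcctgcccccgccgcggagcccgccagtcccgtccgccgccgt

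Hadha and Hadhb, the genes of the trifunctional protein, gave different results although they lie head to head on chromosome 5, Hadha on the minus strand (30118304 to 30155162) and Hadhb on the plus strand (30155248 to 30184593). Hadha, whose product carries the hydratase and hydroxyacyl-CoA dehydrogenase activities, measured 192.7 and 193.4 CPM in WT and 193.2 and 194.9 CPM in KO. This was the smallest change of the 10 enzymes, a log2-fold change of 0.01 with an interval from -0.05 to 0.07. Hadhb, whose product carries the thiolase activity, measured 109.3 and 106.4 CPM in WT and 120.5 and 123.9 CPM in KO. Both KO libraries were above both WT libraries, with a log2-fold change of 0.18 (SE 0.0338, adjusted p = 0.00081, edgeR) that NK lineage scaling turned to -0.44. Within a library, where scaling plays no part, there were 0.567 and 0.550 counts of Hadhb for each count of Hadha in WT and 0.624 and 0.636 in KO. The ratio was thus 12.7% higher in KO, and its groups did not overlap. Of the sequence of Hadhb in stretches of 31 bases, the unit in which Kallisto compares reads, 23.3% also occurs in other genes, mainly in the processed pseudogene Gm13910 (19.5%), so its count is less certain than that of Hadha (0.0913%).

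The RefSeq starts of Hadha and Hadhb are 273 bases apart, so that their promoter windows of 300 bases share 228 bases on opposite strands. The window of Hadhb (chr5:30155003-30155302, plus strand, RefSeq on GRCm38.p6) is printed because 1 short stretch of DNA lies between a gene that passed the test and one that did not. Capitals again mark GGGCGG on either strand.
Hadhb: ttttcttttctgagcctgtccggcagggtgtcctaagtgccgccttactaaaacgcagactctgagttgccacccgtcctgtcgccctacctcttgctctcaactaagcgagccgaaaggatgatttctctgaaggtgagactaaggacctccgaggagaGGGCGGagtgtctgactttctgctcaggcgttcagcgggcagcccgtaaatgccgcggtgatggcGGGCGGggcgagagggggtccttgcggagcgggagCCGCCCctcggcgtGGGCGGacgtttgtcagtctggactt
It holds 4 such matches, as does the window of Acadl. That of Hadha holds 1, which lies in the shared bases. The remaining matches of the Hadhb window lie across or beyond the edge of the Hadha window, so the 2 counts differ by where the windows end. Among the 9 enzymes with a RefSeq window, all but Scd2, GGGCGG was found in 5, and it occurs in 35.7% of the 32851 promoter windows of the table. The nuclear receptor half-site AGGTCA was found in 3 of the 9 (Acadm, Acadvl and Cpt1a; 16.3% of all windows), and CCAAT, the core of the NF-Y site, in Fasn and Cpt1a (37.4%). The ERR site TCAAGGTCA, which contains AGGTCA, and the E-box CACGTG were in none of the 9, and in 0.423% and 7.15% of all windows. Both strands were searched.

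Of the synthesis enzymes, Acaca and Scd2 fell in KO libraries and Fasn did not pass the test. Fasn, on the minus strand of chromosome 11 (120805846 to 120824547), measured 239.7 and 228.7 CPM in WT and 224.1 and 237.2 CPM in KO. The groups overlapped almost fully, with an interval of the log2-fold change from -0.10 to 0.05. Acaca, on the plus strand of chromosome 11 (84129672 to 84401651), measured 72.8 and 74.4 CPM in WT and 60.6 and 65.7 CPM in KO. Both KO libraries were lower, with a log2-fold change of -0.22 (SE 0.0456, adjusted p = 0.00141, edgeR). Scd2, on the plus strand of chromosome 19 (44293674 to 44306864), showed the largest change of the 10 enzymes, from 174.0 and 172.6 CPM in WT to 138.6 and 144.4 CPM in KO. The log2-fold change was -0.29 (SE 0.0313, adjusted p = 7.21e-06, edgeR), and the gap between groups was several times the spread within each.

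Within a library, the counts of Acaca for each count of Fasn were 0.304 and 0.325 in WT and 0.270 and 0.277 in KO, or 13.0% lower. Those of Scd2 for each count of Fasn were 0.726 and 0.755 in WT and 0.619 and 0.609 in KO, or 17.1% lower. Both ratios separated the genotypes without overlap. Of the 31-base stretches of Acaca, 33.4% occur in other genes, mainly in the processed pseudogene Gm5182 (31.7%), whose counts came to 138.1 over the 4 libraries against 9950 for Acaca (1.39%). Scd2 shares 6.81% with other genes, among them Scd3 (4.83%) and Scd1 (4.63%), whose counts were 0.492% and 1.08% of its own.

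**Figure D3:**
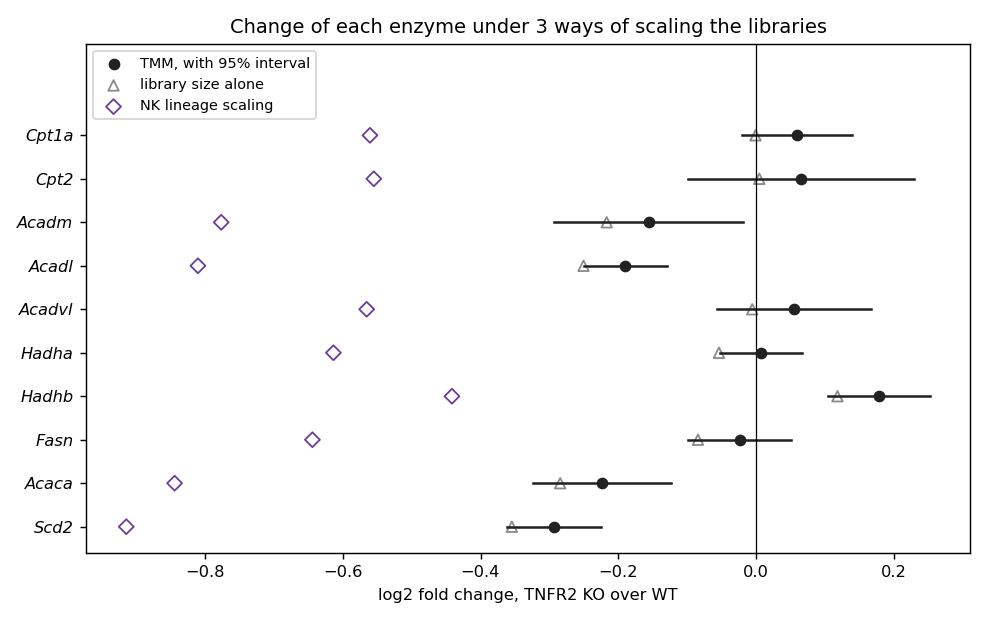
Log2-fold change of each enzyme, TNFR2 KO over WT, with filled circles and lines for the TMM-scaled value and its unadjusted 95% interval, triangles for scaling by library size alone and diamonds for scaling on NK lineage genes. With TMM, Acadl, Acaca and Scd2 lie left of 0 and Hadhb right of it, and with NK lineage scaling all 10 lie between -0.91 and -0.44.

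The scaling decided whether Cpt1a, Cpt2, Acadvl, Hadha and Hadhb stood above or below 0, while Acadm, Acadl, Fasn, Acaca and Scd2 were negative with TMM, with library size alone and with NK lineage scaling. Scaling on 40 NK lineage genes, which were together higher in KO, lowered the median gene to -0.62 on the log2 scale and put all 10 enzymes below 0 with an adjusted p under 0.05. Of all 13822 genes tested, 11416 were likewise lower with this scaling and 249 were higher. Relative to that median, Hadhb stood 0.18 higher, Acadl 0.19, Acaca 0.22 and Scd2 0.29 lower on the log2 scale, since a scaling shifts all genes by about the same amount. Under the 11 other alternatives, Acadl stayed between -0.25 and -0.16, Acaca between -0.28 and -0.15, Scd2 between -0.35 and -0.25 and Hadhb between 0.12 and 0.21. Each of these 4 passed the adjusted p of 0.05 in all 11, with DESeq2 and with the replicate number as a block among them. The share of NK cell RNA, which rose with the KO label, and that of other blood cells, which fell with it, moved together with these differences, and their part in them was not tested.

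To compare the enzymes with each other, CPM was divided by the length of the principal GENCODE transcript. On this scale of CPM per kilobase, Acadl stood first in WT libraries with a mean of 115.1, followed by Hadhb with 52.7, Hadha with 48.1 and Cpt1a with 35.8. Scd2 (31.8), Acadvl (25.5) and Fasn (23.3) came next, and Acadm (12.9), Acaca (7.74) and Cpt2 (7.67) were the least abundant. In WT, the libraries of neighbors in this order did not overlap except those of Acaca and Cpt2. In KO libraries the order of the first 4 was unchanged (101.0, 59.7, 48.3 and 37.3 CPM per kilobase), and Scd2 (25.4 and 26.5) no longer stood above Acadvl (26.3 and 26.6). Acetyl-CoA carboxylase was represented mainly by Acaca. Acacb, which encodes the mitochondrial form, measured only 1.34 and 1.14 CPM in WT and 1.58 and 1.22 CPM in KO. Of the Cpt1 genes, Cpt1b measured 3.67 and 4.50 CPM in WT and 3.23 and 4.06 CPM in KO, and Cpt1c had 34 counts over all libraries and was not tested.

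The wider pathway was described with 5 further lists of 100 genes, of which 89 could be tested. Of these 89, 23 fell and 23 rose at an adjusted p under 0.05 (51.7%, against 50.4% of all genes), and 10 were lower and 1 was higher past both thresholds, where 11.8% and 1.56% of all genes were. Without WT replicate 1, which left 1 WT library, fewer of these genes fell, and fewer of all genes did too. The 10 genes lower past both thresholds measured 0.696 to 31.8 CPM in WT, and 7 of them were under 10 CPM there, as were 1070 of all 1627 genes lower past both thresholds. With only genes of a mean of at least 10 CPM tested, 3 of the 10 were left, namely Acsl1, Hacd4 and Nr1h3.

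**Figure D4:**
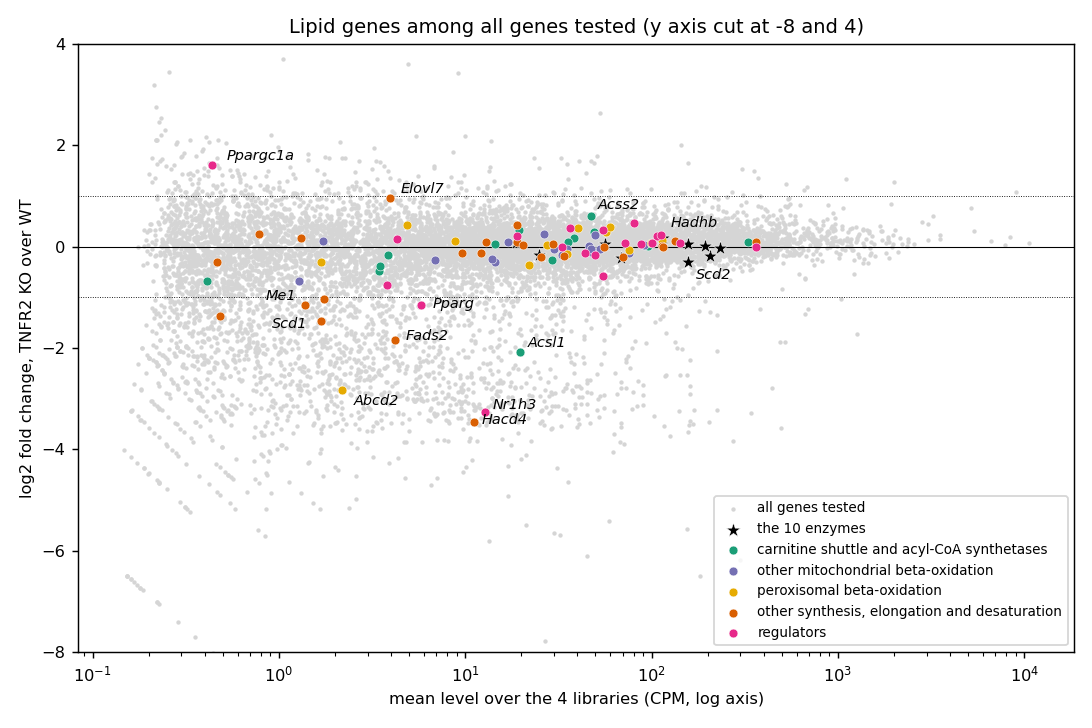
Log2-fold change of TNFR2 KO over WT against the mean level over the 4 libraries (CPM, log axis) for all genes tested (grey), the 10 enzymes (stars) and the 5 further lists (colored circles), with dotted lines at -1 and 1 and genes beyond the ends of the vertical axis left out. The enzymes lie between -0.29 and 0.18, while Hacd4, Nr1h3, Abcd2 and Acsl1 lie between -3.45 and -2.08. The mean KO level of each of these 4 was under 10 CPM.

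In the list of the carnitine shuttle and acyl-CoA synthetases, 3 of 14 tested genes fell and 5 rose, where 26.2% of all genes fell and 24.2% rose. The number that rose was 3 with library size alone and 3 with the filter at 10 CPM, which left 10 genes of the list. The median log2-fold change was 0.03. With NK lineage scaling 13 fell and 0 rose, where 11416 of all 13822 genes fell and 249 rose. Acsl1, a long-chain acyl-CoA synthetase, fell past both thresholds, from 32.5 and 31.1 CPM in WT to 7.19 and 7.90 CPM in KO, a log2-fold change of -2.08 (SE 0.0771, adjusted p = 3.33e-10, edgeR). Both KO libraries lay far below both WT libraries. The 2 most abundant synthetases differed from it, as Acsl5 stood at 0.08 on the log2 scale (adjusted p = 0.0154, which was 0.0503 without WT replicate 2, 0.498 with library size alone and 0.127 with the filter at 10 CPM) and Acsl4 at 0.01, values that NK lineage scaling turned to -0.54 and -0.61. Acss2, which makes acetyl-CoA from acetate and was named after its values were seen, rose from 38.2 and 36.6 CPM to 56.4 and 57.0 CPM (log2-fold change 0.60, adjusted p = 4.45e-07, edgeR), but stood at -0.02 with NK lineage scaling. Slc27a4, a fatty acid transport protein named likewise, had a log2-fold change of 0.30, which NK lineage scaling turned to -0.32. Slc25a20, the carrier of acylcarnitines across the inner membrane, measured 36.8 and 35.3 CPM in WT and 39.4 and 41.6 CPM in KO (log2-fold change 0.17, adjusted p = 0.019). It lost this call with DESeq2 (adjusted p = 0.0993), library size alone (0.116), the filter at 10 CPM (0.0533), without WT replicate 2 (0.0845) and without KO replicate 2 (0.0988), and NK lineage scaling turned it to -0.45.

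The other 17 genes of mitochondrial beta-oxidation were the most even of the lists, with log2-fold changes from -0.67 to 0.26, a median of -0.05 and none past both thresholds. At the adjusted p alone 3 fell and 2 rose, which is 29.4% of the list, against 50.4% of all genes. With NK lineage scaling 16 fell and 0 rose, where 11416 of all 13822 genes fell and 249 rose. The number that fell was 0 with DESeq2 (2 at an unadjusted p under 0.05). It was 5 with library size alone and 5 with the filter at 10 CPM, which left 14 genes of the list. Fewer fell without WT replicate 1 or KO replicate 2, and more without WT replicate 2 or KO replicate 1. Acads, the dehydrogenase for short chains, rose from 45.8 and 45.2 CPM to 51.8 and 55.2 CPM (log2-fold change 0.23, adjusted p = 0.00163, edgeR), and stood at -0.39 with NK lineage scaling. Hadh, the hydroxyacyl-CoA dehydrogenase for shorter chains, measured 49.3 and 49.2 CPM in WT and 45.7 and 45.9 CPM in KO. It missed the threshold (adjusted p = 0.0708, edgeR), which it passed with library size alone (0.00878) and with the filter at 10 CPM (0.0196). Of the electron transfer flavoprotein, which takes up the electrons of the dehydrogenases, Etfa fell by 0.13 on the log2 scale (adjusted p = 0.0145) and Etfb stood at 0.03. The call of Etfa was lost with DESeq2 (adjusted p = 0.0768), without WT replicate 1 (0.1004) and without KO replicate 2 (0.093).

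In peroxisomes, very long chains are shortened. Of 13 tested genes of this list 3 fell and 5 rose, where 26.2% of all genes fell and 24.2% rose. The median log2-fold change was 0.07, and the number that rose was 3 with library size alone. With NK lineage scaling 12 fell and 0 rose, where 11416 of all 13822 genes fell and 249 rose. Abcd2, a peroxisomal transporter of very long-chain acyl-CoA, fell past both thresholds, from 4.03 and 3.63 CPM in WT to 0.569 and 0.499 CPM in KO (log2-fold change -2.83, adjusted p = 1.11e-06, edgeR). Scp2, a sterol carrier and thiolase gene, rose by 0.13 and Crot, the carnitine octanoyltransferase, by 0.38 on the log2 scale. The value of Crot, named after it was seen, rested on 51.2 and 52.0 CPM in WT and 66.8 and 67.9 CPM in KO, and NK lineage scaling turned both genes lower, to -0.49 and -0.24. Scp2 lost its call with library size alone (adjusted p = 0.116).

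Among 25 tested genes of synthesis, elongation and desaturation, 8 fell and 4 rose, where 26.2% and 24.2% of all genes did. Past both thresholds 6 were lower, where 11.8% of all genes were. The number that rose was 2 with library size alone. The filter at 10 CPM left 15 genes of the list, of which 4 fell and 1 rose. Past both thresholds 1 of the 15 was then lower, where 424 of all 8765 genes were. With NK lineage scaling 21 fell and 0 rose, where 11416 of all 13822 genes fell and 249 rose. Without WT replicate 1, fewer of the list fell and fewer were lower past both thresholds. Fewer rose without KO replicate 2. The same held for all genes tested. Hacd4, a dehydratase of chain elongation, showed the largest change, from 21.0 and 19.7 CPM in WT to 1.86 and 1.84 CPM in KO (log2-fold change -3.45, adjusted p = 1.64e-10, edgeR), while Hacd1, a gene of the same family, went from 2.40 and 2.31 CPM to 1.16 and 1.12 CPM (-1.04). Fads2, the delta-6 desaturase, fell from 6.62 and 6.48 CPM to 1.73 and 1.90 CPM (-1.85). Scd1, a desaturase of the same family as Scd2, fell from 2.24 and 2.69 CPM to 0.879 and 0.905 CPM (-1.46, adjusted p = 0.000542). The 2 further genes, named after their values were seen, were Me1, the cytosolic malic enzyme (-1.15), and Scd4 (-1.37). Me1 lost its call without WT replicate 1 (adjusted p = 0.101), and Scd4, with 71 counts in all, lost it with DESeq2 (0.136) and when any of the 4 libraries was left out (0.0678 to 0.19).

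The abundant genes of this list moved little. Acly, which makes the acetyl-CoA for synthesis from citrate, measured 360.0 and 343.3 CPM in WT and 368.2 and 380.9 CPM in KO, a log2-fold change of 0.09 (adjusted p = 0.024). Its call was lost with library size alone (adjusted p = 0.447), with the filter at 10 CPM (0.122), without WT replicate 2 (0.151) and without KO replicate 2 (0.0648), and NK lineage scaling turned it to -0.53. Elovl1, an elongase of saturated very long chains, stood at 0.10 on the log2 scale (adjusted p = 0.0212), lost with DESeq2 (0.063), library size alone (0.311), the filter at 10 CPM (0.0949), without WT replicate 1 (0.0983) and without KO replicate 2 (0.103) and turned to -0.52 by NK lineage scaling. Elovl7 and Mlycd were named after their values were seen. Elovl7, another elongase, rose from 2.50 and 2.82 CPM to 5.12 and 5.28 CPM, a log2-fold change of 0.96 that was 0.34 with NK lineage scaling and then missed the threshold (adjusted p = 0.0692). Mlycd encodes malonyl-CoA decarboxylase, which removes the product of acetyl-CoA carboxylase. It rose from 15.9 and 16.3 CPM to 22.0 and 21.3 CPM (log2-fold change 0.43, adjusted p = 0.000272, edgeR) and stood at -0.19 with NK lineage scaling.

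Of 20 tested regulators 6 fell and 7 rose, where 26.2% of all genes fell and 24.2% rose. With NK lineage scaling 19 fell and 0 rose, where 11416 of all 13822 genes fell and 249 rose. Srebf1 and Srebf2, which encode the transcription factors that drive fatty acid and sterol synthesis, were the most abundant of the regulators. Srebf2 measured 358.7 and 368.3 CPM in WT and 354.2 and 372.6 CPM in KO, and its groups overlapped (log2-fold change -0.001). Srebf1 measured 139.0 and 139.2 CPM in WT and 147.8 and 145.1 CPM in KO and missed the threshold (adjusted p = 0.0564), which it passed with upper-quartile scaling (0.0358), with no filter (0.0475) and without KO replicate 2 (0.048). By contrast, Nr1h3, the gene of the oxysterol receptor LXR-alpha, fell from 22.8 and 23.6 CPM in WT to 2.87 and 1.90 CPM in KO (log2-fold change -3.26, adjusted p = 1.48e-09, edgeR). Pparg, the gene of a fatty acid-sensing nuclear receptor, fell from 7.51 and 8.46 CPM to 3.80 and 3.34 CPM (-1.16, adjusted p = 3.23e-05). Rxra, which encodes the partner receptor of both and was named after its values were seen, fell from 65.1 and 66.3 CPM to 45.1 and 43.0 CPM (-0.58). Ppard, a relative of Pparg named likewise, measured 33.3 and 33.2 CPM in WT and 32.9 and 33.6 CPM in KO. It did not pass (log2-fold change -0.0008, adjusted p = 0.991, edgeR), and Ppara, with 11 counts, was not tested. The relatives of Nr1h3 and Rxra in the list, also named after their values were seen, went the other way with TMM. Nr1h2, the gene of LXR-beta, rose from 97.0 and 102.6 CPM to 111.4 and 118.8 CPM (0.20, adjusted p = 0.00134), and stood at -0.42 with NK lineage scaling. Rxrb rose from 47.5 and 49.96 CPM to 59.6 and 62.3 CPM (0.32, adjusted p = 0.000103), and stood at -0.30 with that scaling.

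Ppargc1a, the gene of a coactivator of mitochondrial genes, was the single gene of the 5 lists that was higher past both thresholds (log2-fold change 1.61, adjusted p = 0.018). It had 63 counts over the 4 libraries, at 0.185 and 0.244 CPM in WT and 0.724 and 0.593 CPM in KO, and lost its call with DESeq2 (adjusted p = 0.0919) and without WT replicate 1 (0.144), WT replicate 2 (0.079) or KO replicate 1 (0.132). Subunits of AMP-activated protein kinase, which inhibits acetyl-CoA carboxylase, are named here after their values were seen. Prkab1 rose from 68.6 and 66.8 CPM to 94.8 and 93.6 CPM (log2-fold change 0.48, adjusted p = 3.92e-07, edgeR), but stood at -0.14 with NK lineage scaling. Prkag1 and Prkag2 had log2-fold changes of 0.22 and 0.36, which that scaling turned to -0.40 and -0.26. Of the other subunits in the list, the catalytic Prkaa1 fell from 45.2 and 46.1 CPM to 41.9 and 41.6 CPM (log2-fold change -0.13, adjusted p = 0.0367), a call lost with DESeq2 (0.195), with no filter (0.0562) and when any library was left out (0.0913 to 0.177). Prkab2 measured 3.53 and 4.64 CPM in WT and 4.47 and 4.62 CPM in KO and did not pass (adjusted p = 0.492), and Prkaa2, with 7 counts, was not tested. The 10 genes of the 5 lists lower past both thresholds had log2-fold changes from -3.45 (Hacd4) to -1.04 (Hacd1). Acsl1, Hacd4, Nr1h3 and Abcd2 lay between -3.45 and -2.08, and Fads2, Scd1, Scd4, Pparg, Me1 and Hacd1 between -1.85 and -1.04. The macrophage or monocyte markers had a median of -2.89 on the log2 scale. Those of the granulocyte precursors, basophils or mast cells, dendritic cells and erythroid cells had medians of -2.46, -5.41, -2.92 and -1.85. The part of such cells in the values of the 10 genes was not tested.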

How the data were processed

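RNA-seq was performed on 4 libraries of Ly49H+ NK cells, 2 WT and 2 TNFR2 KO. Per the labels and methods, the authors made poly-A selected, stranded, paired-end libraries, trimmed reads with Trimmomatic 1.4, assigned them to mm10 transcripts with kallisto 0.46.1 and summed them per gene with Tximport; the annotation was not given in the sources used here. They deposited estimated counts (expected counts) per gene symbol, unscaled. A row with no gene name (0.0559% to 0.0728% of counts) was left out.

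Counts were rounded, filtered with filterByExpr, scaled with TMM and tested with edgeR 4.0.16 (R 4.3.3), genotype being the only term, with Benjamini-Hochberg adjustment. The study's limits were kept, 0.05 for the adjusted p and 1 for the size of the log2-fold change. DESeq2 1.42.0, the study's tool, was an alternative. The smallest two-sided p of an exact permutation of 2 against 2 libraries is 0.333, so no such test was used. Duplicates differed by more than counting noise (mean chi-square per gene 3.29 and 3.49), and edgeR's biological coefficient of variation was 3.33%. Steps were tested on simulated data.

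Members, lists and tests were chosen with earlier results of these data known. Besides the 10 enzymes, the rule named Tnfrsf1b, close relatives, up to 4 genes past both thresholds and, from every list, the 2 with the most counts, and 6 markers. Me1, Scd4, Acss2, Elovl7, Crot, Mlycd, Slc27a4, Rxra, Prkab1, Prkag1, Prkag2, Prkaa1, Prkaa2, Prkab2, Rxrb, Nr1h2, Decr1, Fads1, Ccr2 and the pseudogenes were added after values were seen. So were Ppard and Ppara. A gene that the rule names is not reported here. The labels pair same-numbered libraries through shared pools of spleens, and their deviations from the group means correlated at 0.0575 across genes. Alternatives were 4 scalings, DESeq2, 2 filters, the replicate block and each library left out. Positions, lengths and shared 31-base stretches come from GENCODE M21 (GRCm38), promoters from RefSeq (GRCm38.p6). Plots were drawn with matplotlib 3.10.9.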

Additional observations from a re-analysis of the deposited data

How the results depend on the processing

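With 2 libraries for each genotype, the smallest change of an enzyme that passed was 12.3%, while genes with under 100 counts in all, such as Scd4 and Ppargc1a, lost their calls when libraries were left out. With TMM, 3624 genes were lower and 3341 higher at the adjusted p, and 1627 and 215 past both thresholds. NK lineage scaling gave 11416, 249, 2901 and 48, 10 enzymes lower and 0 higher, and in the 5 further lists 81 lower, 0 higher and 0 higher past both thresholds. It turned these log2-fold changes to negative values: Cpt1a -0.56, Cpt2 -0.56, Acadvl -0.57, Hadha -0.61, Hadhb -0.44, Slc25a20 -0.45, Acads -0.39, Acacb -0.44, Acsl5 -0.54, Acsl4 -0.61, Etfb -0.59, Scp2 -0.49, Acly -0.53, Elovl1 -0.52, Srebf1 -0.55, Acss2 -0.022, Crot -0.24, Mlycd -0.19, Slc27a4 -0.32, Prkab1 -0.14, Prkag1 -0.40, Prkag2 -0.26, Prkab2 -0.47, Rxrb -0.30 and Nr1h2 -0.42. This scaling lowers every gene by about the same amount. Library size alone turned Cpt1a to -0.00053, Acadvl to -0.0053, Hadha to -0.054, Acsl4 to -0.055 and Etfb to -0.028. With a mean of at least 10 CPM, 8765 genes were tested, 424 were lower and 56 higher past both thresholds, the further lists had 3 and 0, and Hadha (-0.029), Acsl4 (-0.030) and Etfb (-0.0031) turned. Fewer genes enter under that filter, and those below it got no value. In the further lists, DESeq2 gave 14 lower at the adjusted p alone and 0 higher past both thresholds, and the cause was not tested. Srebf2 turned positive with DESeq2's size factors (0.00070), upper-quartile scaling (0.0079), DESeq2 (0.00076) and no filter (0.0043).

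With each library left out in turn, 1 to 2 enzymes were higher (2 without WT replicate 1 and without KO replicate 1), and the further lists had 14 to 21 lower genes and 0 to 1 higher past both thresholds. In none of these fits were fewer enzymes lower than with all libraries, and without WT replicate 1 more were. Of all genes tested, fewer were lower and fewer were higher at the adjusted p in each of them. Each such fit leaves 1 library in a group, so its calls carry little weight. Log2-fold changes that turned ranged from -0.0071 to 0.14 for Acadvl, -0.059 to 0.028 for Fasn, -0.33 to 0.0019 for Cpt1b, -0.019 to 0.35 for Acacb, -0.022 to 0.097 for Etfb, -0.033 to 0.046 for Srebf2 and -0.022 to 0.37 for Prkab2. The replicate block pairs libraries by the pool of spleens the labels give. With it, 3 enzymes were lower and 1 higher at the adjusted p. Of the further genes 25 were lower and 23 higher, where 3674 and 3414 of all 13822 genes were. Past both thresholds, 1616 of all genes were lower and 214 higher. The block changed the calls of Decr1 (adjusted p = 0.0337, edgeR) and Fads1 (0.0402), which missed the threshold without it. No other call among the enzymes and the 5 lists changed.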
